A study of Mus musculus with 9 samples.

Results

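Antiviral interferon-stimulated effector genes were examined in mature megakaryocytes (mMKs), the platelet-forming cells of the bone marrow, before and after ionizing radiation (IR). The 43 genes are interferon-stimulated effectors outside the GBP, IRG, Mx, IFIT, OAS and Schlafen families, except Ifi47, an IRG GTPase that the list also holds, and were matched by name to the 37316 genes named on the array. Of the 43, 42 had a probe, Ifitm2 had none, and Ifi44l was well above background on 0 of 9 arrays and was not tested. The other 41 were well above background on all 9 arrays, so that no member entered through the group in which it was high, and they stand beside 29410 genes tested in all.

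Bone marrow mMKs came from male mice in 3 groups. Controls (Ctrl) were not irradiated, and the others were taken at 1 and 3 days post IR (dpi) after total body exposure to 5 Gy of gamma rays. The labels give neither strain, genotype nor age beyond background-matched animals, and do not say whether animals were pooled. Cells were enriched by selection for CD41 and then CD42d, surface proteins of the megakaryocyte lineage, which does not remove every other cell. Each group had 3 Agilent 1-colour arrays with 59305 spots for genes. Between 69.1% of spots, on Ctrl replicate 1, and 81.8%, on 3 dpi replicate 3, were well above background. Ctrl replicate 1 was alone on its slide and scan, while the other 8 arrays shared a slide, so that slide and replicate cannot be told apart for this array. From each log2 intensity the 75th percentile of its array was subtracted, and the result is here called a level, so that a level of 0 is that percentile. A gene was called when its change had a Benjamini-Hochberg adjusted p under 0.05 over all genes tested in limma and was at least 2-fold. With 3 arrays a group, the smallest p that permuting the labels could reach is 0.1.

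Type I interferons bind a receptor of the subunits IFNAR1 and IFNAR2 on nearly all nucleated cells. Kinases on the receptor then activate transcription factors, which enter the nucleus and bind the interferon-stimulated response element (ISRE) of target genes. The products of these genes act on viral entry, on viral RNA and its translation, on assembly and release, and on the pathway itself. Megakaryocytes carry the receptor, and platelets inherit proteins and RNA made in response to interferon.

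Regulatory letters were searched in the promoters of the members, which were listed as interferon-stimulated genes. An excess of ISRE letters over all genes can follow from that choice alone and is not a result of these arrays. RefSeq promoter windows of the build GRCm38.p6, 300 bases from 250 before to 50 after the start, were at hand for 35 of the 43 members, and Ifi27l2a, Parp10, Parp14, Parp9, Rtp4, Tor3a, Trim14 and Usp18 had none. An ISRE was searched on both strands as GAAANNGAAA, and its letters were found in 11 of the 35 members (31.4%) against 1079 of 27025 genes with a window (3.99%). The gamma-activated site, searched as TTCNNNGAA, was found in 7 of the 35 (20%) against 9.55% of all genes. Windows of 4 members (11.4%) held both motifs, against 0.54% of all genes, and the matches overlapped in 3 of them. The stretches of 4 members called higher at 1 dpi and of 1 that was not are shown with the ISRE letters in capitals, in either orientation, to let a reader see how the motif lies in genes that differed in response.
Isg15: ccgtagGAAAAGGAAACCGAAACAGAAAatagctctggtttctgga
Rsad2: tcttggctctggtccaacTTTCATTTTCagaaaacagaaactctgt
Bst2: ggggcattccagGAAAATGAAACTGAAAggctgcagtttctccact
Ddx60: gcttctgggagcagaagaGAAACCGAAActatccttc
Lgals9: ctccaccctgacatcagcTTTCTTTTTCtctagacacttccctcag
The Isg15 stretch lies at chr4:156200857-156200902 and the Rsad2 stretch at chr12:26456545-26456590, both on the minus strand. That of Bst2 lies at chr8:71537569-71537614 and that of Lgals9 at chr11:78984952-78984997, also on the minus strand, and that of Ddx60 at chr8:61928050-61928086 on the plus strand. In Isg15 and Bst2 neighbouring matches overlap and form a longer run of capitals. Among members called higher at 1 dpi, 6 of 15 with a window held the ISRE letters (40.0%), and among those tested and not called 4 of 18 did (22.2%). A match is a description of letters and not of a bound site.

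At 1 dpi the members were high together. Of 41 tested, 19 were called higher than in Ctrl (46.3%), against 12.3% of all genes tested, and 0 were called lower, against 2.86%. The unadjusted p in limma was under 0.05 in the lower direction for 2 members. The test named in the study's methods had 2 at an unadjusted p under 0.05 and called 0 with the same adjustment and 2-fold minimum. With the adjusted p alone 36 members were higher (87.8%, against 34.8% of all genes), and the arrays of 1 dpi lay above those of Ctrl without overlap in 38 (92.7%, against 42.4%). The median log2 change of the members was 0.87. The scaling left the median of all genes at 0.25, and relative to it the members' median was 0.62. Fewer cells of a type and less RNA per cell cannot be told apart in these bulk samples.

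The scaling set how many members passed 2-fold. With each array's median in place of the 75th percentile 10 of the 19 were called, against 6.76% of all genes called higher and 7.11% called lower, so that all genes no longer leaned upward. Under that scaling Ube2l6, Parp10, Parp12, Ddx60, Trim30a, Ifitm1, Ifitm3, Sp110 and Ifi44 fell short of 2-fold. Isg15, Usp18, Rsad2, Isg20, Rtp4, Bst2, Ifi27l2a, Xaf1 and Lgals3bp were called under each of the 25 alternatives tried. Without Ctrl replicate 1, that is, within 1 slide, 18 of the 19 were called, against 8.87% of all genes called higher. Ifi44 was not, with a log2 change of 0.94.

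**Figure D1:**
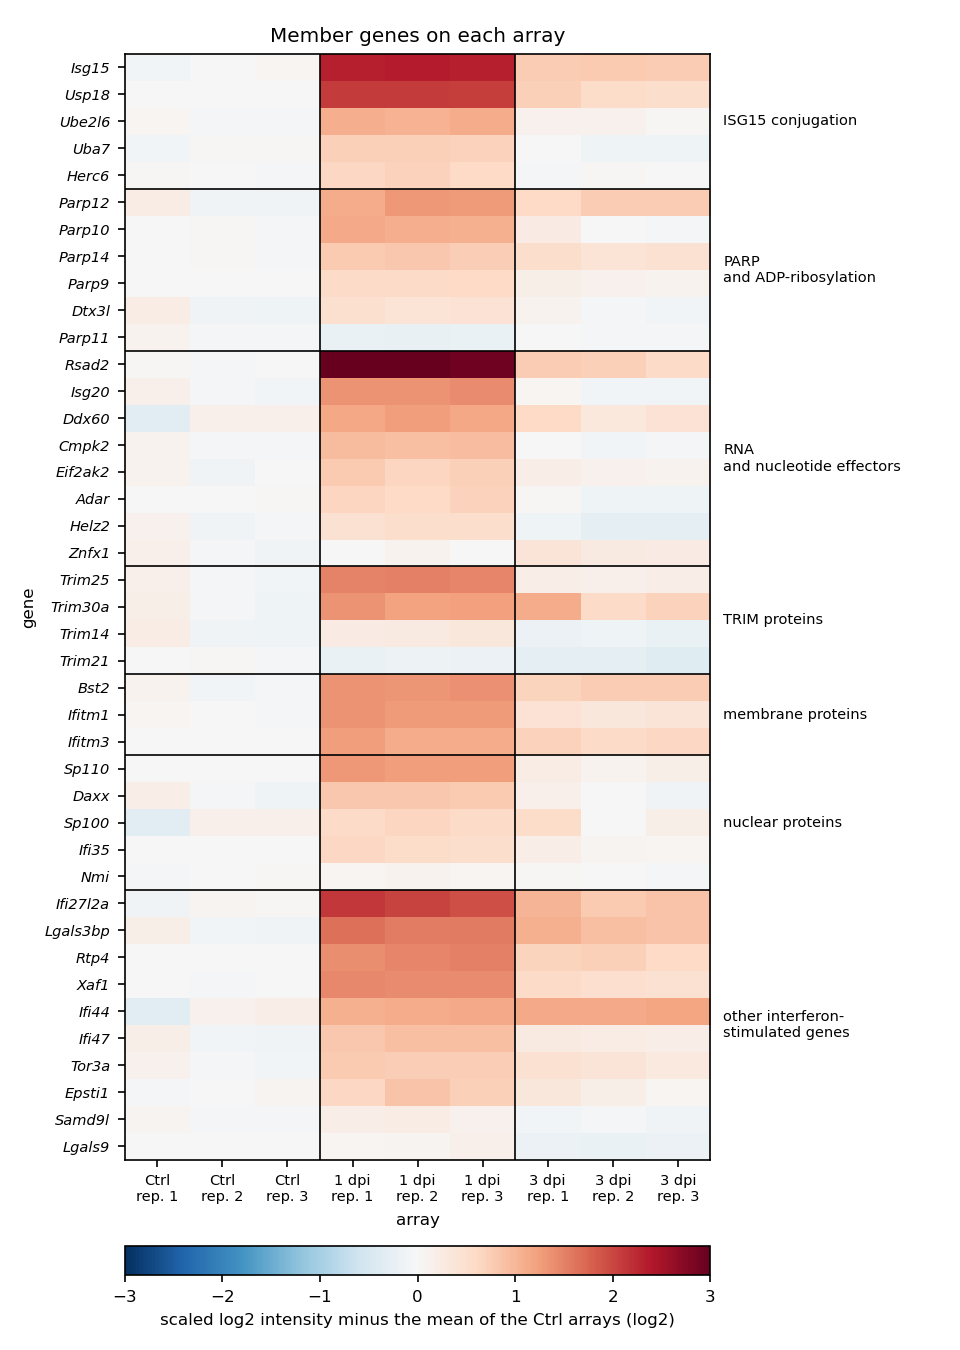
Levels of the 41 tested members (rows, by role) on the 9 arrays (columns), shown as log2 difference from the mean of the Ctrl arrays. The 1 dpi arrays are the darkest block, with Rsad2, Isg15, Usp18 and Ifi27l2a on top, and at 3 dpi most rows are paler, with Ifi44 and Znfx1 among the exceptions.

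Genes of ISG15 conjugation gave some of the largest changes. Isg15, the ubiquitin-like protein that is attached to viral and cellular proteins, had levels of 2.49, 2.57 and 2.62 in Ctrl, 4.90, 4.91 and 4.90 at 1 dpi, and 3.32, 3.35 and 3.33 at 3 dpi. No array of one group overlapped another group. Its probe lies at chr4:155573649-155573708 in mm9, the build of the array files. Isg15 rose 5.07-fold at 1 dpi (log2 change 2.34 ± 0.06, standard error, n = 3 arrays a group, adjusted p = 2.4e-07). At 3 dpi its log2 change against Ctrl was 0.77 ± 0.06 (adjusted p = 3.4e-05), which is 33.0% of the change at 1 dpi. Usp18, the protease that removes ISG15 and also dampens the interferon receptor, had levels of -0.27, -0.23 and -0.25 in Ctrl, 1.85, 1.84 and 1.82 at 1 dpi, and 0.45, 0.31 and 0.28 at 3 dpi. The 3 groups of arrays were again separate. Usp18 rose 4.25-fold at 1 dpi (2.09 ± 0.06, adjusted p = 6.1e-07), and 28.6% of the change was left at 3 dpi. Ube2l6, the conjugating enzyme for ISG15, had levels of 1.34, 1.25 and 1.24 in Ctrl, 2.37, 2.33 and 2.39 at 1 dpi, and 1.41, 1.40 and 1.30 at 3 dpi. It rose 2.12-fold at 1 dpi (1.09 ± 0.06, adjusted p = 8e-06). Its other probe gave 0.78, and with the mean of both, 0.93, the call was lost. On 3 dpi it overlapped with Ctrl, and 8.84% of the change was left (adjusted p = 0.27 against Ctrl). Uba7, the activating enzyme, and Herc6, the mouse ligase for ISG15, were 1.63-fold and 1.56-fold higher at 1 dpi, with adjusted p of 9.2e-05 and 0.0001 but under 2-fold. At 3 dpi Uba7 gave -0.09 (adjusted p = 0.34) and Herc6 -0.01 (adjusted p = 0.95) against Ctrl. The adjusted p at 3 dpi was thus under 0.05 for Isg15 and Usp18, and not for Ube2l6, Uba7 and Herc6. Whether these genes differ in the share left was not tested.

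Effectors that act on RNA and nucleotides included the member with the largest change. Rsad2 (viperin), an enzyme whose product ends the RNA chains that viral polymerases make, had levels of 0.36, 0.28 and 0.34 in Ctrl, 3.36, 3.33 and 3.24 at 1 dpi, and 1.1, 1.03 and 0.89 at 3 dpi. Its probe lies at chr12:27127859-27127918 in mm9. Rsad2 rose 7.92-fold (2.99 ± 0.07, adjusted p = 2.4e-07), the largest change at 1 dpi among the 41 members, with 22.8% left at 3 dpi. Its other probe gave 3.15. Isg20, an exonuclease that degrades RNA, had levels of 3.14, 2.93 and 2.91 in Ctrl, 4.34, 4.35 and 4.40 at 1 dpi, and 3.05, 2.91 and 2.91 at 3 dpi. The arrays of Ctrl and 3 dpi overlapped, and those of 1 dpi stood above both. Isg20 rose 2.59-fold at 1 dpi (1.37 ± 0.08, adjusted p = 1.1e-05), and at 3 dpi its change was -0.04 ± 0.08 (95% interval -0.22 to 0.15, adjusted p = 0.76). Ddx60, a helicase of RNA sensing, had levels of -0.87, -0.40 and -0.42 in Ctrl, 0.60, 0.69 and 0.61 at 1 dpi, and 0.03, -0.26 and -0.14 at 3 dpi. Ctrl replicate 1 stood below the other Ctrl arrays of Ddx60. The gene rose 2.29-fold at 1 dpi (1.20 ± 0.14, adjusted p = 0.00029), with 37.0% left at 3 dpi, or 14.1% by its other probe. Without that array its change at 1 dpi was 1.04. Cmpk2, a nucleotide kinase of mitochondria, is the neighbour of Rsad2 on chromosome 12 with 0 genes between. Its levels were 1.97, 1.81 and 1.84 in Ctrl, 2.81, 2.78 and 2.81 at 1 dpi, and 1.88, 1.78 and 1.81 at 3 dpi. The change at 1 dpi was 0.93 ± 0.06 (1.90-fold, adjusted p = 2.6e-05), under 2-fold, and at 3 dpi it was -0.05. The neighbours thus differed in the size of the change. Eif2ak2 (PKR), the kinase that halts translation on sensing double-stranded RNA, was 1.65-fold higher at 1 dpi, and Adar, which edits double-stranded RNA, 1.56-fold, both with an adjusted p under 0.05. For Helz2, a helicase, the value was 1.42-fold. Znfx1, an RNA helicase of early antiviral sensing, had a log2 change of 0.04 at 1 dpi (adjusted p = 0.69) and of 0.30 at 3 dpi (adjusted p = 0.034), below 2-fold and the only member with an adjusted p under 0.05 for a higher level at 3 than at 1 dpi.

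**Figure D2:**
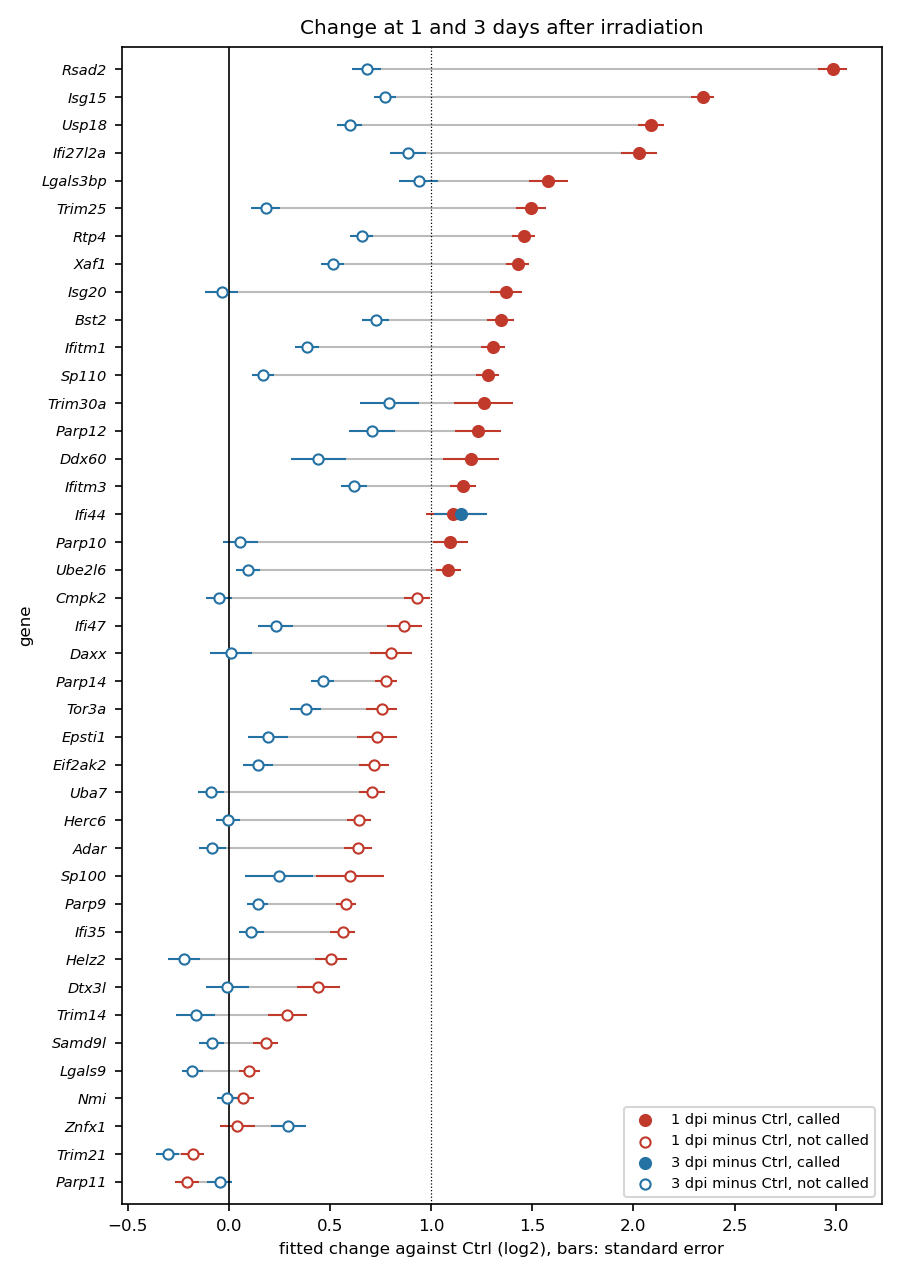
Log2 change against Ctrl of each tested member at 1 dpi (red) and 3 dpi (blue), with standard errors (n = 3 arrays a group); filled points were called and the dotted line is 2-fold. Blue points lie left of red ones in 38 of 41 members, and Ifi44 is the member with a filled blue point.

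ADP-ribosylating enzymes of the PARP family modify proteins and in part RNA, and several curb the translation of viral RNA. Parp12 had levels of -0.39, -0.73 and -0.73 in Ctrl, 0.48, 0.69 and 0.66 at 1 dpi, and -0.02, 0.15 and 0.13 at 3 dpi. The 3 groups did not overlap. Parp12 rose 2.35-fold at 1 dpi (1.23 ± 0.11, adjusted p = 0.0001), and 57.4% was left at 3 dpi. A dim second probe gave 36.6%, which is not exact, since it was well above background on 2 of 3 Ctrl arrays. Parp10 had levels of 3.65, 3.66 and 3.59 in Ctrl, 4.78, 4.72 and 4.69 at 1 dpi, and 3.87, 3.64 and 3.57 at 3 dpi. Its arrays of 3 dpi lay around those of Ctrl. Parp10 rose 2.14-fold at 1 dpi (1.09 ± 0.09, adjusted p = 4.6e-05), with 5.22% left at 3 dpi. Its call at 1 dpi was lost with quantile normalization, where the change was 0.92. Parp14, a large enzyme of the same family, had levels of 1.97, 2.01 and 1.95 in Ctrl, 2.76, 2.77 and 2.72 at 1 dpi, and 2.50, 2.39 and 2.43 at 3 dpi. The groups were separate in Parp14 as well. Its change was 0.78 ± 0.06 at 1 dpi (1.71-fold, adjusted p = 3.1e-05) by the brighter probe and 1.70 by the other, so that the probe decided whether it reached 2-fold. Parp9 and Dtx3l, whose proteins form a complex and whose genes are neighbours on chromosome 16, gave 0.58 and 0.44 at 1 dpi by the brightest probe. Other probes gave up to 1.53 for Parp9 and 1.26 for Dtx3l. Parp11 had a lower level at 1 dpi by its brighter probe, with a change of -0.21 (adjusted p = 0.022), while the other probe gave 0.30 and the mean of both 0.05. No direction is therefore given for Parp11.

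Among TRIM proteins, Trim25 and Trim30a were called higher at 1 dpi. Trim25, the ubiquitin ligase that assists the RNA sensor RIG-I, had levels of 5.27, 5.06 and 5.06 in Ctrl, 6.62, 6.65 and 6.60 at 1 dpi, and 5.33, 5.27 and 5.33 at 3 dpi. The 1 dpi arrays stood far above the rest. By this probe Trim25 rose 2.82-fold (1.49 ± 0.07, adjusted p = 4.5e-06), with 12.2% left at 3 dpi. Its other probes gave 0.11 and 0.71 at 1 dpi, and with the mean of its probes, 0.77, the call was lost. Trim30a, which dampens signalling from toll-like receptors, had levels of 1.22, 1.01 and 0.92 in Ctrl, 2.40, 2.25 and 2.28 at 1 dpi, and 2.16, 1.64 and 1.74 at 3 dpi. The 3 dpi arrays of Trim30a were spread widely but lay above Ctrl. It rose 2.39-fold at 1 dpi (1.26 ± 0.15, adjusted p = 0.00029), and 63.0% was left at 3 dpi. Another probe left 53.6% and the dimmest gave 0.96 at 1 dpi and 0.11 at 3 dpi, so that 2 of 3 probes of Trim30a left over 50%. Trim14, an adaptor in the sensing of nucleic acids, had levels of 0.98, 0.65 and 0.63 in Ctrl, 1.01, 1.02 and 1.1 at 1 dpi, and 0.59, 0.61 and 0.56 at 3 dpi. Its 3 probes gave 0.29, 0.52 and -0.71 at 1 dpi, with an adjusted p under 0.05 in both directions, and in the authors' table it was called lower. No direction is given for Trim14 either. Trim21, a receptor for antibodies inside the cell, had a change of -0.18 at 1 dpi (adjusted p = 0.031) and of -0.30 at 3 dpi (adjusted p = 0.0051), both under 2-fold.

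All 3 membrane proteins with a probe were called higher at 1 dpi. Bst2 (tetherin) holds budding virions at the cell surface and had levels of 2.69, 2.51 and 2.56 in Ctrl, 3.92, 3.92 and 3.94 at 1 dpi, and 3.24, 3.34 and 3.35 at 3 dpi. The arrays fell into 3 separate groups. Bst2 rose 2.54-fold at 1 dpi (1.34 ± 0.07, adjusted p = 5.2e-06), and 54.1% of the change was left at 3 dpi. Ifitm1, which blocks the fusion of viral with cellular membranes, had levels of 3.98, 3.92 and 3.89 in Ctrl, 5.29, 5.22 and 5.21 at 1 dpi, and 4.36, 4.27 and 4.32 at 3 dpi. It rose 2.47-fold at 1 dpi (1.30 ± 0.06, adjusted p = 3.2e-06), with 29.6% left. Ifitm3, which acts on fusion in endosomes, had levels of 4.83, 4.82 and 4.81 in Ctrl, 6.07, 5.93 and 5.93 at 1 dpi, and 5.50, 5.38 and 5.43 at 3 dpi. Its groups were separate as well. Ifitm3 rose 2.23-fold at 1 dpi (1.16 ± 0.06, adjusted p = 7.7e-06), with 53.5% left, and its change was 0.79 with quantile normalization. Ifitm1 and Ifitm3 lie on chromosome 7 with 2 genes between, and Ifitm2, without a probe, lies next to Ifitm1. For each of the 3 membrane proteins the change at 3 dpi against Ctrl had an adjusted p under 0.05 without reaching 2-fold.

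Nuclear proteins were represented by Sp110 among the calls. Sp110, a nuclear body protein, had levels of 6.55, 6.54 and 6.52 in Ctrl, 7.85, 7.80 and 7.80 at 1 dpi, and 6.77, 6.64 and 6.71 at 3 dpi. It rose 2.43-fold at 1 dpi (1.28 ± 0.06, adjusted p = 3e-06), with 13.2% left at 3 dpi. This rested on the brightest of 4 probes, since the others gave 0.53, 0.75 and 0.84, and with quantile normalization the change of the brightest was 0.63. With the mean of its probes, 0.85, the call was lost, and the direction at 1 dpi was the same in all 4. Daxx, a histone chaperone that silences viral genomes, had levels of 3.09, 2.85 and 2.77 in Ctrl, 3.72, 3.71 and 3.70 at 1 dpi, and 3.06, 2.90 and 2.79 at 3 dpi. The arrays of 3 dpi overlapped those of Ctrl. Its change was 0.80 ± 0.10 at 1 dpi (1.74-fold, adjusted p = 0.0005) and 0.01 at 3 dpi. Sp100, a relative of Sp110 that lies on chromosome 1 with 1 gene between, had levels of 1.84, 2.33 and 2.33 in Ctrl, 2.75, 2.80 and 2.75 at 1 dpi, and 2.71, 2.19 and 2.35 at 3 dpi. Ctrl replicate 1 was low and 3 dpi replicate 1 high for Sp100. The change was 0.60 ± 0.17 at 1 dpi (adjusted p = 0.019). Ifi35 had a change of 0.56 at 1 dpi (adjusted p = 0.00023), and Nmi, the protein it binds, of 0.07 (95% interval -0.05 to 0.19, adjusted p = 0.28).

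The remaining genes held several of the larger changes. Ifi27l2a, a small protein of mitochondrial and nuclear membranes, had levels of 4.44, 4.62 and 4.59 in Ctrl, 6.67, 6.57 and 6.49 at 1 dpi, and 5.56, 5.33 and 5.41 at 3 dpi. The 3 groups of arrays were apart. Ifi27l2a rose 4.08-fold at 1 dpi (2.03 ± 0.09, adjusted p = 2.8e-06), and 43.7% was left at 3 dpi. Lgals3bp, a secreted glycoprotein that binds galectins, had levels of 3.74, 3.46 and 3.46 in Ctrl, 5.20, 5.08 and 5.12 at 1 dpi, and 4.61, 4.46 and 4.41 at 3 dpi. It rose 2.99-fold at 1 dpi (1.58 ± 0.10, adjusted p = 1.4e-05), with 59.5% left at 3 dpi (0.94 ± 0.10). Without Ctrl replicate 1 its change at 3 dpi was 1.03, which passed the call. A much dimmer probe of Lgals3bp gave 0.85 at 1 dpi and -0.01 at 3 dpi, so that here too the share left depended on the probe. Rtp4, a chaperone of membrane receptors, had levels of 2.81, 2.79 and 2.79 in Ctrl, 4.20, 4.26 and 4.30 at 1 dpi, and 3.46, 3.50 and 3.40 at 3 dpi. Each group of Rtp4 arrays was tight and apart from the others. Rtp4 rose 2.75-fold at 1 dpi (1.46 ± 0.06, adjusted p = 1.8e-06), with 45.0% left. Xaf1, which binds the inhibitor of apoptosis XIAP, had levels of 0.41, 0.37 and 0.42 in Ctrl, 1.83, 1.82 and 1.83 at 1 dpi, and 0.99, 0.91 and 0.85 at 3 dpi. It rose 2.69-fold at 1 dpi (1.43 ± 0.06, adjusted p = 1.9e-06), with 36.1% left by this probe, while another of its probes had a change of -0.14 at 3 dpi. The share left in Xaf1 thus depended on the probe. Ifi47, the IRG GTPase on the list, had a change of 0.87 at 1 dpi, Tor3a, an ATPase of the torsin family, of 0.76, and Epsti1 of 0.73, all 3 with an adjusted p under 0.05. Samd9l gave 0.18 (adjusted p = 0.036), and Lgals9, a galectin, 0.10 (adjusted p = 0.13). The signs of Samd9l, Lgals9, Nmi and Znfx1 at 1 dpi turned when each change was taken relative to the median of all genes.

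At 3 dpi most members were closer to Ctrl. Against Ctrl 1 of 41 was called higher (2.44%), against 6.98% of all genes tested, and 0 were called lower, against 1.82%. The unadjusted p in limma was under 0.05 in the lower direction for 3 members, and by the methods' test for 2, of which 0 were called with adjustment and the 2-fold minimum. With the adjusted p alone 17 were higher (41.5%, against 16.8% of all genes), and in 22 the arrays of 3 dpi lay above those of Ctrl without overlap (53.7%, against 26.2%). Relative to the median of all genes, 0.11, the members' median of 0.18 came to 0.07, which was 0.17 without Ctrl replicate 1 and 0.02 without Ctrl replicate 2 or 3. The comparisons of 1 and 3 dpi with Ctrl share the same Ctrl arrays.

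The gene called at 3 dpi was Ifi44, a cytoplasmic interferon-induced protein, which was chosen for values by array after its values were seen. Its levels were -1.91, -1.46 and -1.37 in Ctrl, -0.51, -0.46 and -0.44 at 1 dpi, and -0.45, -0.45 and -0.40 at 3 dpi. Both groups of irradiated mice overlapped each other and stood above Ctrl. The probe lies at chr3:151394035-151394094 in mm9. Ifi44 rose 2.16-fold at 1 dpi (1.11 ± 0.13, adjusted p = 0.00035) and 2.21-fold at 3 dpi (1.15 ± 0.13, adjusted p = 0.00042), so that 103% of the change was left. Ctrl replicate 1 was the lowest array, and without it the changes were 0.94 and 0.98, both short of 2-fold. A dimmer probe of Ifi44 gave 1.58 at 1 dpi and 0.47 at 3 dpi, which is a partial return like that of other members. The lasting level of Ifi44 is therefore a result of 1 probe. Its neighbour on chromosome 3, Ifi44l, was below background throughout.

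**Figure D3:**
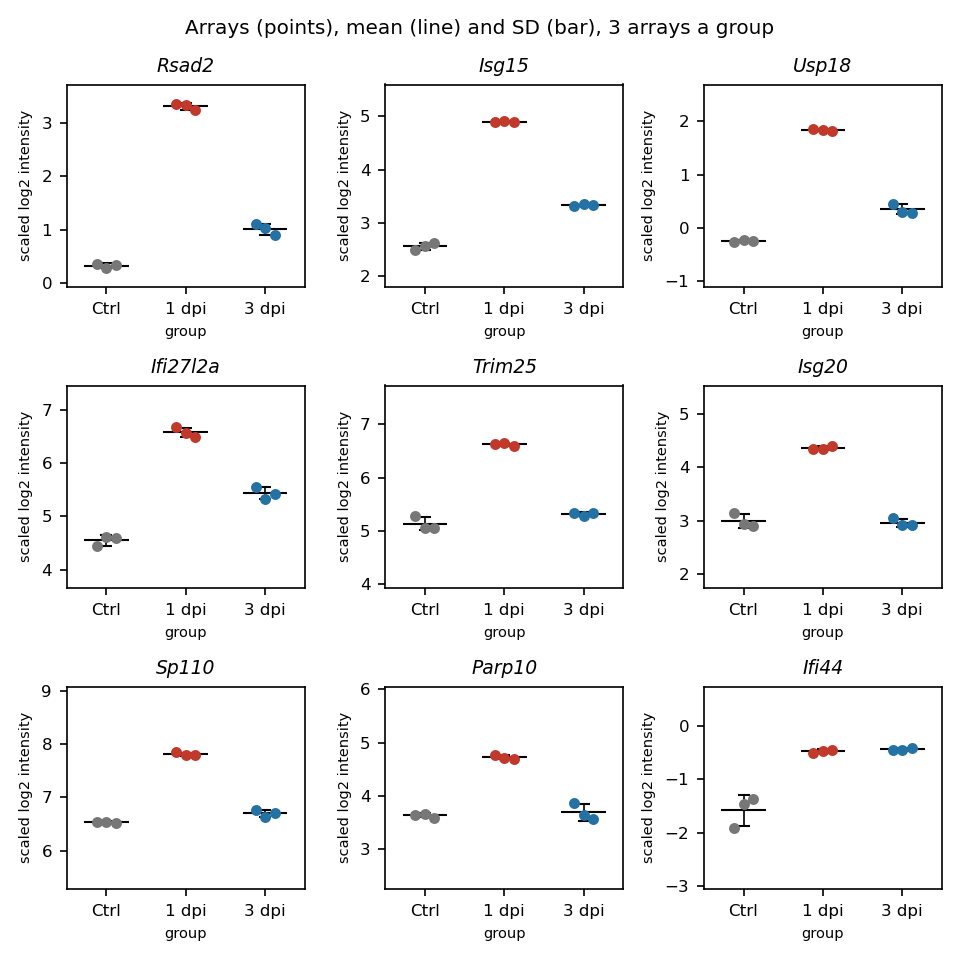
Levels on each array (points), with the group mean (line) and SD (bar), for the 8 members called lower at 3 than at 1 dpi and for Ifi44. In the 8 the 1 dpi arrays stand above those of both other groups, and in Ifi44 the 3 dpi arrays stay beside those of 1 dpi.

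Between 3 and 1 dpi the fitted difference was tested directly. Of 41 members, 8 were called lower at 3 dpi (19.5%), against 4.83% of all genes tested, and 0 were called higher, against 3.96%. The unadjusted p in limma was under 0.05 in the higher direction for 2, and by the methods' test for 2, of which 0 were called with adjustment and the 2-fold minimum. With the adjusted p alone 35 were lower (85.4%, against 24.8% of all genes), and in 38 the arrays of 3 dpi lay below those of 1 dpi without overlap (92.7%, against 38.4%). Genes called higher at 1 dpi and then lower at 3 than at 1 dpi were 8 of the 41 members (19.5%), against 3.54% of all genes, a count that shares the 1 dpi arrays. This contrast includes the excess of members called higher at 1 dpi. Among genes called higher at 1 dpi, 8 of 19 members were then called lower, against 1042 of 3625 of all genes. The members' median difference was -0.63, and relative to the median of all genes, -0.11, it was -0.52. Rsad2 fell by 2.30 on the log2 scale (adjusted p = 5.2e-06), Isg15 by 1.57 (adjusted p = 5.5e-06) and Usp18 by 1.49 (adjusted p = 8.4e-06). For Isg20 the difference was -1.41 (adjusted p = 2.2e-05), for Trim25 -1.31 (adjusted p = 2e-05) and for Ifi27l2a -1.14 (adjusted p = 7.8e-05). These 6 genes code for proteins with unlike roles, from an RNA exonuclease to a ubiquitin-like modifier. Sp110 gave -1.11 (adjusted p = 1.5e-05) and Parp10 -1.04 (adjusted p = 0.0001). In each of the 8 the 3 dpi arrays were below all 1 dpi arrays. Rsad2, Isg15, Usp18 and Isg20 kept this call under each of the 25 alternatives. Ube2l6 and Cmpk2 lay at the threshold, with -0.99 and -0.98. Without 3 dpi replicate 1 both gave -1.01 and passed, without 1 dpi replicate 2 or 3 dpi replicate 2 Ube2l6 passed with -1.01 and -1.0, and without 3 dpi replicate 3 Parp10 gave -0.97 and lost its call.

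By the brightest probes, the share of the day 1 rise that remained spanned a wide range, and whether genes differ in it was not tested. It was taken for members chosen by their change at 1 dpi, which is also the divisor of the share. Over the 19 members called higher at 1 dpi, the median share of the log2 change left on day 3 was 36.1%. Relative to the median of all genes it was 34.0%, and on the linear scale 25.4%. The share was under 25% in 6 members, from 25 to 50% in 7 and over 50% in 6. By the brightest probes the lowest was that of Isg20, -2.59%, and the highest that of Ifi44. The other probe of Isg20 left 9.96%. Genes under 25% were Isg20, Parp10, Ube2l6, Trim25, Sp110 and Rsad2. Those over 50% were Ifitm3, Bst2, Parp12, Lgals3bp, Trim30a and Ifi44 by their brightest probes. Other probes left smaller shares in Lgals3bp, Trim30a and Ifi44, and in Parp12 by a probe near background in Ctrl. Ifitm3 and Bst2 had 1 probe each. Of the 19, 14 still had an adjusted p under 0.05 against Ctrl at 3 dpi, and Ube2l6, Parp10, Isg20, Trim25 and Sp110 did not. A p that misses the threshold does not show that these 5 were back at their Ctrl level. By role, the median change went from 1.09 at 1 dpi to 0.10 at 3 dpi for ISG15 conjugation and from 1.30 to 0.62 for the membrane proteins. It went from 0.82 to 0.05 for RNA and nucleotide effectors, from 0.68 to 0.10 for the PARP group, and from 0.77 to 0.01 for TRIM proteins. For nuclear proteins it went from 0.60 to 0.11, and for the remaining genes from 0.99 to 0.45. Whether the role groups differ was not tested.

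**Figure D4:**
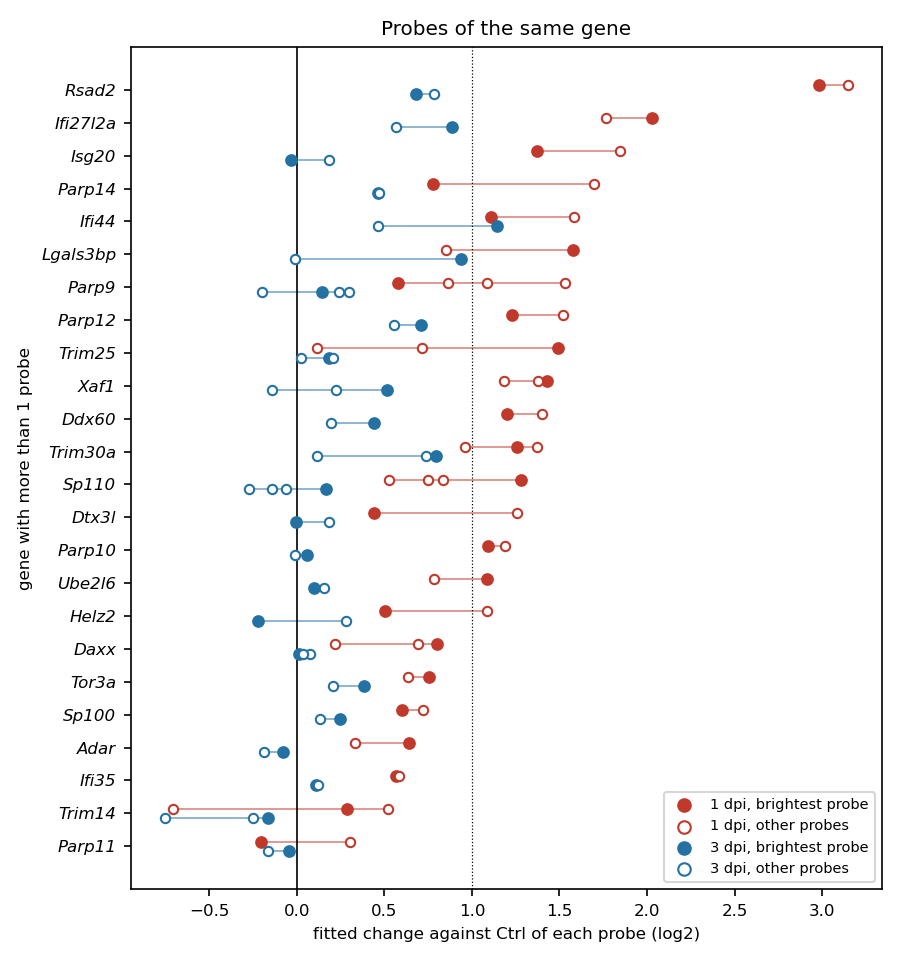
Log2 change against Ctrl of each probe of the 24 members with more than 1 probe, at 1 dpi (red) and 3 dpi (blue); filled points are the brightest probe, which stands for the gene. Wide lines mark genes such as Parp9, Parp14, Trim25, Sp110 and Trim14, whose probes differed in size or sign.

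With the 75th percentile scaling the direction at 1 dpi was the same in nearly all probes. That scaling also left 18757 of the 29410 genes tested with a positive change at 1 dpi. With the array median in its place, 34 of the 41 members had a positive change. Of 74 probes of the 41 members, 71 had a positive change at 1 dpi and 66 of them an adjusted p under 0.05, against 34.8% of all 44300 probes that passed. The 66 include a dim probe of Parp12, well above background on 2 of 3 Ctrl arrays. They also include one of Xaf1, above it on 1 of 3 in Ctrl and 2 of 3 at 1 dpi. Both passed the filter only through irradiated groups and are no support for the direction. In 3 probes, of Parp11, Trim14 and Trim21, the adjusted p was under 0.05 in the lower direction. At 3 dpi 71 of the 74 were below their level at 1 dpi, 63 of them with an adjusted p under 0.05, against 27.5% of all probes. Of the 29410 genes tested, 12250 were higher at 3 than at 1 dpi. The size was less certain than the direction, since Parp9, Parp14, Dtx3l and Helz2 passed 2-fold at 1 dpi by a probe other than the brightest. Of the 41, 17 rested on 1 probe.

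Genes upstream of the members were taken from a list of interferon ligands, receptors and signalling proteins. Of 19 ligand genes 14 were tested. At 1 dpi 5 were called higher, against 12.3% of all genes tested, and at 3 dpi 1 was, against 6.98%. Ifnb1 is among the 5 but passed the filter only through the irradiated groups. Ifnb1, the gene of interferon beta, was below background on all 3 Ctrl arrays and above it on all 6 others, with levels of -3.98, -4.27 and -3.69 at 1 dpi and -6.03, -6.42 and -6.02 at 3 dpi. It was at least 6.02-fold higher at 1 dpi than in Ctrl and at least 1.33-fold higher at 3 dpi, and between 3 and 1 dpi it fell by 2.18 (adjusted p = 9.3e-05). Ifna11, one of the interferon alpha genes, had levels of -5.66, -3.82 and -3.98 in Ctrl and -2.05, -2.26 and -2.50 at 1 dpi. Its change was 2.22 (adjusted p = 0.0044), or 1.63 without Ctrl replicate 1. At 3 dpi it was 1.02 (adjusted p = 0.13), or 0.43 without that array. Ifng, the gene of the type II interferon made by T and NK cells, rose at both times, by 1.30 (adjusted p = 2.3e-05) and 2.21 (adjusted p = 1.6e-06). It was thus higher at 3 than at 1 dpi, with a difference of 0.91 (adjusted p = 0.00021). Ifna1 and Ifna13 gave 1.16 and 1.08 at 1 dpi, and without Ctrl replicate 1 0.84 and 0.65, short of the call. The other ligands tested were not called at 1 dpi, with Ifna2 at 0.95, Ifna5 at 0.80, Ifna7 at 0.38, Ifna9 at 0.42, Ifna12 at 1.36, Ifna14 at 0.94, Ifnab at 0.40, Ifnk at -0.38 and Ifnl3 at 0.60. Without Ctrl replicate 1 many of these were smaller, with Ifna2 at 0.35, Ifna5 at 0.40, Ifna7 at 0.19, Ifna12 at 0.59, Ifna14 at 0.49, Ifnl3 at 0.09 and Ifnab at -0.02, where the sign turned. Ifna12 was well above background on 2 of 3 arrays in Ctrl and at 1 dpi. Ifna2 and Ifna13 were so on 2 of 3 Ctrl arrays, and Ifnk on 2 of 3 at 1 dpi. The changes of these genes at 1 dpi are therefore not exact. Interferon alpha genes are alike in sequence, and whether a probe also binds the RNA of its relatives was not tested. Ifna4 and Ifne did not pass the filter, and Ifna6, Ifnz and Ifnl2 had no probe.

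All 6 receptor genes were well above background on all 9 arrays, and 0 were called in any comparison by limma, while the adjusted p alone was under 0.05 at 1 dpi for 1 in the higher and 3 in the lower direction. Ifnar1 had a change of 0.62 at 1 dpi and 0.41 at 3 dpi, and Ifnar2 of -0.27 and 0.04. For the receptor of interferon gamma, Ifngr1 gave 0.13 and 0.26 and Ifngr2 -0.10 and 0.50. For that of interferon lambda, Ifnlr1 gave -0.66 and -0.65 and Il10rb -0.23 and 0.46. Signalling genes called higher at 1 dpi included Stat2 (1.04), Irf1 (1.48) and Irf7, and Irf1 fell again between 1 and 3 dpi, by 1.59. Irf7, the factor that drives interferon alpha genes, had levels of 3.73, 3.65 and 3.63 in Ctrl, 5.85, 5.80 and 5.79 at 1 dpi, and 5.08, 4.88 and 4.82 at 3 dpi. It rose by 2.14 at 1 dpi (adjusted p = 1.4e-06) and by 1.25 at 3 dpi (adjusted p = 1.6e-05). These factors and the members called higher at 1 dpi, except Ifi44, thus had their highest levels on the 1 dpi arrays.

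Other interferon-stimulated families serve as a yardstick. Over 30 genes of the GBP, IRG and Mx, IFIT and OAS families, 22 were called higher at 1 dpi, 10 at 3 dpi, 12 lower at 3 than at 1 dpi and 2, both GBP genes, higher, with a median change of 1.59 at 1 dpi and 0.78 at 3 dpi. The medians at 1 dpi were 3.06 for the 5 IFIT genes, 1.53 for 7 IRG and Mx genes, 1.38 for 8 OAS genes and 0.92 for 10 GBP genes, against 0.87 for the 41 members. At 3 dpi they were 1.49, 0.35, 0.52 and 0.86, against 0.18. Without Ctrl replicate 1 Gbp4 was also called at 3 dpi (1.01) and Mx2 was just short of 2-fold. Whether the members differ from these families was not tested.

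**Figure D5:**
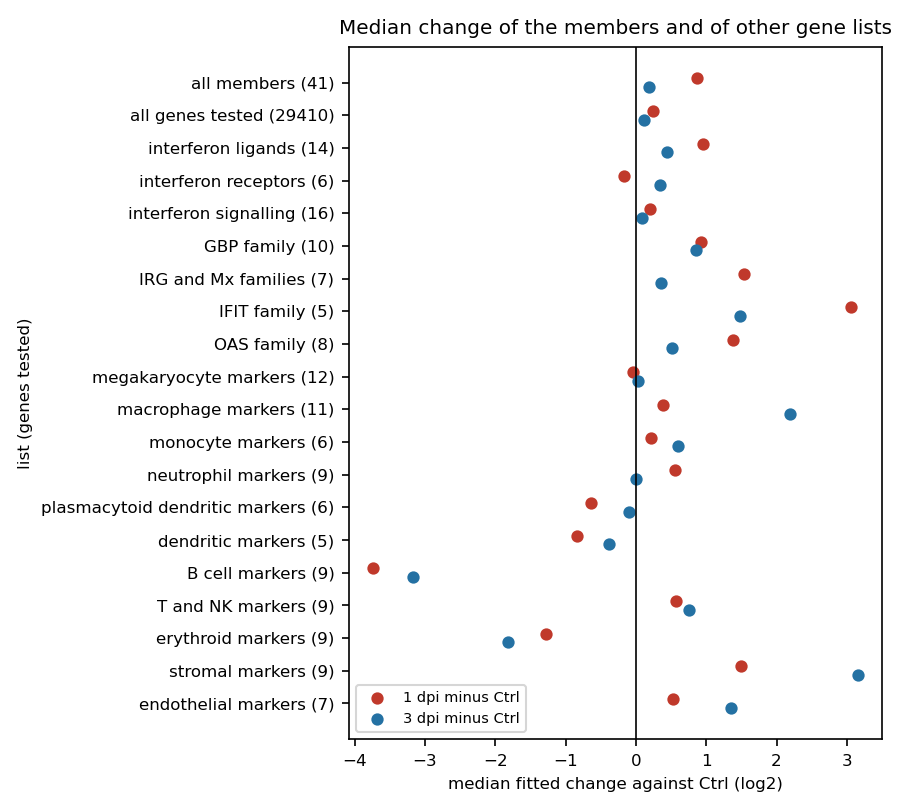
Median log2 change against Ctrl of the members, of all genes tested, of pathway genes, of other interferon-stimulated families and of cell type markers, at 1 dpi (red) and 3 dpi (blue), with the number of genes tested in parentheses. The members lie at 0.87 and 0.18, the IFIT genes at 3.06 and 1.49, and B cell markers below -3 at both times.

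The cell type was checked with 12 megakaryocyte markers, all well above background on all 9 arrays. With limma 0 were called at either time, with the adjusted p alone 2 were higher and 3 lower at 1 dpi and 4 higher at 3 dpi, and their median change was -0.05 at 1 dpi and 0.03 at 3 dpi. The brightest was Pf4, platelet factor, at 6.04 to 6.25 over the arrays. The summed intensity of the 12, in units of the array's 75th percentile, was 132, 120 and 118 in Ctrl. It was 132, 122 and 120 at 1 dpi, and 140, 138 and 137 at 3 dpi. The neutrophil sum given below was larger on every array. Markers of other cells were also above background and several moved. The summed intensity of the 9 neutrophil markers, in units of the array's 75th percentile, was 1040, 1110 and 1100 in Ctrl, 1870, 1750 and 1730 at 1 dpi, and 1170, 1040 and 1100 at 3 dpi. That of the 41 members was 365, 350 and 347, then 858, 835 and 826, then 464, 427 and 435. Both sums were highest at 1 dpi, as was that of all genes tested, which was 131000 to 134000 in Ctrl, 170000 to 176000 at 1 dpi and 135000 to 143000 at 3 dpi. Of the neutrophil markers 2 were called higher at 1 dpi and 0 at 3 dpi, with medians of 0.56 and 0.01, and the brightest was Mpo at 7.66 to 8.74. Without Ctrl replicate 1 S100a9 gave 0.96 and was not called at 1 dpi. Of the 6 monocyte markers 1 was called higher at 1 dpi and 2 at 3 dpi (medians 0.21, below that of all genes, and 0.60), with sums of 229, 216 and 213, then 406, 387 and 384, then 263, 253 and 260, and Ly6c2 the brightest. F13a1 was also called at 3 dpi without Ctrl replicate 1, with 1.01. Macrophage markers (11) included 5 that were called higher at 1 dpi and 2 that were called lower, and at 3 dpi 7 were called higher, with medians of 0.39 and 2.19 and Cd68 and Vcam1 the brightest at 1 dpi. Their sums were 46.7, 42.3 and 40.8, then 62.5, 59.4 and 62.8, then 117, 116 and 113, and were thus highest at 3 dpi.

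Of the 9 stromal markers 6 were called higher at 1 dpi and 5 at 3 dpi (medians 1.49 and 3.16), with sums of 7.90, 7.41 and 7.67, then 36.3, 32.1 and 34.9, then 61.7, 57.7 and 61.5, and Cxcl12 the brightest. Kitl and Pdgfra were not called at either time, Pdgfrb was lower at both times short of 2-fold, and Lepr was called at 1 dpi alone. Of 7 endothelial markers 2 were called higher at 1 dpi and 4 at 3 dpi (medians 0.53 and 1.35), with sums of 2.85, 2.57 and 2.63, then 4.47, 4.12 and 4.30, then 8.86, 7.37 and 7.62, and Stab2 among the brightest. Of 9 T and NK cell markers 2 were called higher at 1 dpi and 4 at 3 dpi (medians 0.56 and 0.76), with sums of 30.7, 32.7 and 31.1, then 45.7, 42.7 and 43.1, then 40.0, 36.3 and 35.1, and Nkg7 the brightest. Ncr1 gave 0.91 and was not called at 1 dpi without Ctrl replicate 1. B cell markers went the other way, with 8 of 9 called lower at both times (medians -3.73 and -3.17). Their sums dropped from 29.9, 28.5 and 29.2 in Ctrl to 5.98, 5.76 and 5.93 at 1 dpi. Of 9 erythroid markers 6 were called lower and 2 higher, the globin genes, at 1 dpi, and 7 lower at 3 dpi (medians -1.28 and -1.82). Their sums were 110, 90.6 and 93.4 in Ctrl, 250, 206 and 203 at 1 dpi, and 36.5, 36.8 and 34.0 at 3 dpi, with Hba-a1 the brightest, and without Ctrl replicate 1 Tfrc gave -0.92 at 1 dpi and was not called. Plasmacytoid dendritic markers (6, including the member Bst2) included 2 called higher at 1 dpi and 1 called lower at each time (medians -0.63 and -0.10). The 2 were Bst2 itself and Siglech, the brightest, whose change of 1.09 was 0.70 and not called without Ctrl replicate 1. The sums were 37.1, 51.2 and 52.2 in Ctrl, 75.2, 71.6 and 70.6 at 1 dpi, and 51.9, 48.4 and 47.1 at 3 dpi, the lowest on Ctrl replicate 1. Of 5 dendritic markers tested, 2 were called lower at 1 dpi and 1 at 3 dpi (medians -0.84 and -0.38), and Xcr1 was below background on all 9 arrays. Neutrophil, macrophage, stromal, endothelial, T and NK cell markers by their median and sum, and monocyte, erythroid and plasmacytoid dendritic markers by their sum alone, were thus higher at 1 dpi with the members, and their part in the result was not tested.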

How the data were processed

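RNA of sorted mMKs was measured on 9 Agilent 1-colour arrays, 3 each of Ctrl, 1 dpi and 3 dpi. The authors deposited scanner intensities made with Feature Extraction 10.7.1.1, with background already subtracted in the processed signal. The authors deposited flags of 0 or 1 that mark spots well above background. The authors also deposited a log2 table of 27068 genes whose scaling and merging of probes are not described. Its column medians are 5.84, 5.84 and 5.83 in Ctrl, 5.80, 5.80 and 5.79 at 1 dpi, and 5.86, 5.86 and 5.87 at 3 dpi, and it served as an alternative only.

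Control spots and outlier spots were left out, and log2 processed signals were centred on the 75th percentile over the gene spots of the array. That percentile was 10.02 to 10.63 in Ctrl, 9.31 to 9.42 at 1 dpi and 10.34 to 10.53 at 3 dpi. A probe was kept when some group had it well above background on each of its 3 arrays, and the probe with the highest mean stood for its gene. The 3 groups entered 1 model in limma 3.58.1 (R 4.3.3), with Benjamini-Hochberg adjustment over 29410 genes. The share of the day 1 change left on day 3 is a ratio of 2 log2 changes with the same Ctrl arrays and has no test. Values by array were given for the 3 members of each role with the largest change at 1 dpi, for 4 where a role had over 7 members, for each member called lower in any comparison, and for any member with called probes of opposite sign. Of the other pathway genes, the 3 with the largest change at 1 dpi and each ligand and receptor that passed were named. Ifi44 was added after its values were seen. The members and lists were chosen with earlier results of these data known. Lists covered pathway genes, other interferon-stimulated families and markers of megakaryocytes, macrophages, monocytes, neutrophils, plasmacytoid dendritic, dendritic, B, T and NK, erythroid, stromal and endothelial cells.

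Alternatives changed the scaling, background, filter, choice of probe, call, test, blocks for replicate and slide, and left out each array. The number of arrays limits the precision of each value.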

Additional observations from a re-analysis of the deposited data

Results flagged for a closer look

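The change against Ctrl differed between 3 and 1 dpi in 8 members, by the fitted comparison of the 2 times in limma with at least 2-fold. In each of the 8 all 3 arrays of 3 dpi were below all 3 of 1 dpi. The difference was -2.30 for Rsad2, -1.57 for Isg15 and -1.49 for Usp18 on the log2 scale. It was -1.41 for Isg20, -1.31 for Trim25 and -1.14 for Ifi27l2a. For Sp110 it was -1.11 and for Parp10 -1.04. No Ctrl array enters this difference, although the Ctrl arrays enter the pooled spread, and all 6 arrays compared were on 1 slide. Rsad2, Isg15, Usp18 and Isg20 kept the call under each of the 25 alternatives. The other 4 lost it with quantile normalization, at -0.96 for Trim25, -0.78 for Ifi27l2a, -0.46 for Sp110 and -0.92 for Parp10. With the array median Ifi27l2a (-0.95), Sp110 (-0.92) and Parp10 (-0.85) lost it. With the mean of a gene's probes Trim25 (-0.64) and Sp110 (-0.92) did. No explanation was tested.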

How the results depend on the processing

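The counts below are of 41 members. At 1 dpi 19 were called higher, against 12.3% of all genes. With the array median 10 were, against 6.76%, and with the adjusted p alone 36, against 34.8%. Called lower at 1 dpi were 0, against 2.86% of all genes. The count was 1 in the deposited table, against 8.41% of all genes, and 2 with the adjusted p alone, against 21%. The 1 in the deposited table was Trim14, which reversed to -1.15 (adjusted p = 0.0075, range over the alternatives 0.00087 to 0.91). At 3 dpi 1 was called higher. With the mean of a gene's probes, the deposited table or the probe with the largest change at 1 dpi 0 were, with the slide as a random block 2, against 6.51% of all genes, and with the adjusted p alone 17, against 16.8%. Called lower at 3 dpi with the adjusted p alone were 2, against 15.1% of all genes. Between 3 and 1 dpi 8 were called lower, against 4.83% of all genes, and 5 with the array median, against 2.89%. With the adjusted p alone 35 were lower, against 24.8% of all genes, and 1 was higher, against 19.7%. With the probe of largest change 13 were called lower. The choice of that probe, and a percentile over probes counted once, were added after seeing the data. That probe was chosen by its own change at 1 dpi and for the members alone, so that its values are raised by the choice and are not comparable with those of all genes.

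The members' median relative to all genes at 1 dpi was 0.62. It was 0.78 with quantile normalization, 0.35 with normexp background, 0.51 without a filter and 0.96 in the deposited table. It was 0.79 with the slide as a fixed block, which is the same as leaving out Ctrl replicate 1, 0.75 with the slide as a random block and 0.91 with the probe of largest change. Leaving out 1 array gave 0.53, without Ctrl replicate 3, to 0.79, without Ctrl replicate 1. At 3 dpi the median was 0.07. It was 0.19 in the deposited table and 0.17 with the slide as a fixed block, and 0.02 to 0.17 without 1 array, the lowest without Ctrl replicate 2 or 3 and the highest without Ctrl replicate 1. Between 3 and 1 dpi it was -0.52. It was -0.20 with normexp background, -0.78 in the deposited table and -0.68 with the probe of largest change. The cause was not tested.

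The share of the day 1 change left on day 3, 36.1%, was 29.6% with the mean of probes, 28.3% in the deposited table and 29.6% with the probe of largest change. Ifi44 reversed between 3 and 1 dpi with that probe, from 0.04 to -1.12 (adjusted p = 0.00083, range 0.00083 to 0.95). The cause was not tested beyond the change of probe.

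Leaving out 1 array gave 18 to 19 members called higher at 1 dpi, 1 at 3 dpi and 7 to 10 called lower between 3 and 1 dpi. Of all genes it gave 8.87 to 15.5%, 6.16 to 7.61% and 4.07 to 5.34%. The 1 at 3 dpi was Lgals3bp (1.03) in place of Ifi44 (0.98) without Ctrl replicate 1. Quantile normalization gave 16, 1 and 6, the 6 being 4 of the 8 with Cmpk2 and Ube2l6 gained, normexp 19, 1 and 7, and changes relative to all genes 13, 1 and 6. The shares of all genes were 6.61, 5.90 and 3.24%, then 8.40, 3.50 and 4.09%, then 7.65, 6.28 and 3.61%. A block for replicate number gave 19, 1 and 8, as did limma on 2 groups alone and the methods' test. For these 3 the shares of all genes were 11.6, 6.7 and 4.57%, then 10.8, 6.6 and 5.2%, then 8.82, 5.82 and 4.89%. Of 1025 results of a member under an alternative at 1 dpi, 968 kept their side of the threshold, 27 lost the call, 29 gained one and 1 reversed. At 3 dpi 999 kept their side, 5 lost and 21 gained a call. Between 3 and 1 dpi 966 kept theirs, 14 lost, 44 gained and 1 reversed. Changes that were not called could turn in sign and still count as kept, as Trim14, Samd9l, Lgals9, Nmi and Znfx1 did at 1 dpi with the array median. Signal over background limited the set at Ifi44l, which was not tested.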
